A study of Mus musculus with 12 samples.

Results

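The comparison described here was metformin alone against Control, with no FK506 present, and it used 6 of the 12 samples of the series, 3 Metformin and 3 Control. Its members were the samples that the labels give the treatment Metformin or Control, and the genes with an FPKM of at least 0.5 in at least 3 of these 6 samples, which were 13351 of the 45777 genes listed. FPKM counts the fragments of a gene per kilobase of its transcript and relative to all fragments of the library. Both groups were CD4+ T cells from the spleen of wild type C57BL/6 mice aged 7 weeks per the labels, and both were stimulated for 3 days with anti-CD3 at 0.5 ug/ml, an antibody that triggers the T cell receptor. The study's methods give the mice another age and add soluble anti-CD28, a costimulating antibody, which the labels do not name, and the sources used here do not settle either point. The groups thus shared the stimulus and differed in the drug, and the dose of metformin for these cultures is not given in the sources used here. Nothing in the labels says whether the 3 samples of a group came from separate mice or cultures, so the p-values measure the spread between these samples, which may be technical. The whole series has 4 groups, the other two being FK506, which is tacrolimus, and Metformin+FK506.

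Metformin is a drug for diabetes that slows complex I of the mitochondrial respiratory chain, which lowers the energy charge of the cell and activates the kinase AMPK. AMPK restrains mTORC1, the kinase complex that drives growth, glycolysis and lipid synthesis in a T cell after stimulation. A stimulated CD4+ T cell turns from the slow metabolism of the resting state to glycolysis, divides, and takes on an effector program such as Th1, Th2 or Th17, each with its own transcription factor and cytokines.

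Control libraries held 48806123 to 57284196 counted reads and metformin libraries 51834670 to 55374050. Changed genes are those with an adjusted p under 0.05 in edgeR's quasi-likelihood test, where the adjustment (Benjamini-Hochberg) ran over all 13351 genes. With metformin 9115 genes changed, 4593 of them higher and 4522 lower, which is 68.3% of the genes tested, 34.4% higher and 33.9% lower. Most of these changes were small, the median size over all genes tested being 0.28 on the log2 scale, and 1209 of the changed genes (9.06% of those tested) moved by at least 1 on that scale, which is a factor of at least 2. In 70.0% of the genes tested the FPKM values of the groups did not overlap. The counts in the gene lists below are to be read against these shares, and the sizes of the changes are given beside them. The split between higher and lower depends on the scaling: 50.4% of the changed genes were higher here and 57.8% with upper-quartile scaling. Values with ± are the mean and SD of 3 samples.

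The T cell identity of the samples was plain in both groups. All 13 T cell identity genes passed the filter, with a summed FPKM of 2920 to 2974 in Control and 2797 to 2905 with metformin. Cd4, the coreceptor that names these cells, was at 143, 139 and 139 FPKM in the Control samples and 192, 189 and 188 with metformin. Markers of other cells were low but not all were level. The summed FPKM of 10 B cell markers was 165 to 180 in Control and 216 to 235 with metformin, and that of the CD8 markers Cd8a and Cd8b1 was 9.01 to 9.52 and 12.9 to 13.2. The summed FPKM of 10 myeloid markers was 6.64 to 6.79 in Control and 9.30 to 10.6 with metformin. For 6 dendritic cell markers it was 2.60 to 2.80 and 4.46 to 5.23, and for 7 red cell and platelet markers 0.562 to 0.873 and 1.46 to 1.73. That of 8 neutrophil markers was lower with metformin, at 2.88 to 3.15 in Control and 0.0561 to 0.230 with metformin. Of the 10 myeloid markers 2 passed the filter, Cd68 (log2 fold change 1.00) and Mpeg1 (-2.01), and the macrophage marker C1qa had no read in the 6 samples. In bulk RNA fewer cells of a type and less RNA per cell cannot be told apart, and the part of these cells in the results below was not tested.

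**Figure D1:**
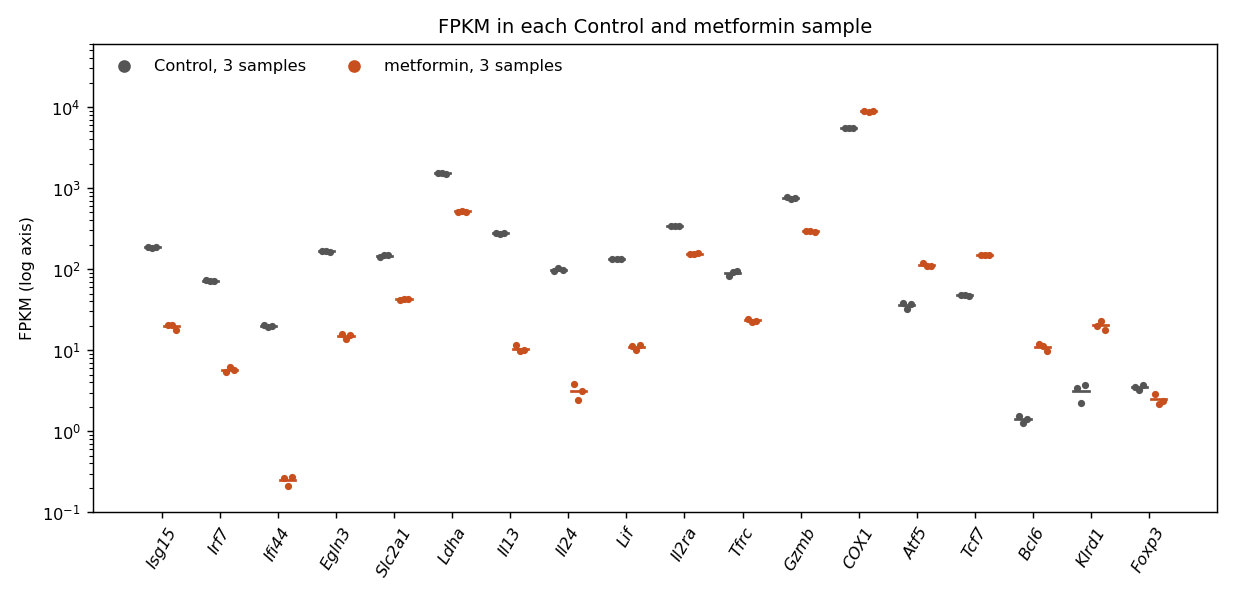
FPKM on a log axis for 18 genes in each Control sample (grey) and each metformin sample (orange), with a line at the group mean. The groups are apart for every gene drawn, from Ifi44 at 0.211 to 0.269 FPKM with metformin against 19.1 to 20.3 in Control, to Foxp3, where the gap between the groups was narrow.

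Interferon-stimulated genes and the Th2 genes had the 2 lowest medians of the 31 pathway lists. These genes encode antiviral and signalling proteins that type I and type II interferons switch on through STAT factors and the interferon regulatory factors. Of the 25 measured, 23 fell, 1 rose and 1 did not pass the test, with a median log2 fold change of -2.43, against 0.0077 over all genes tested. The list took 0.316% ± 0.00385 (SD, n = 3) of the counted reads in Control and 0.106% ± 0.000463 with metformin (p = 0.1, two-sided exact permutation test, the smallest that 3 against 3 samples allow).

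Isg15, a ubiquitin-like protein that is joined to other proteins, was at 189, 182 and 189 FPKM in the Control samples and 20.5, 20.2 and 18 with metformin. Its log2 fold change was -3.29, SE 0.047, adjusted p = 3.01e-18. Irf7, the regulatory factor that amplifies the interferon response, was at 73.8, 70.4 and 71.3 FPKM in the Control samples and 5.43, 6.12 and 5.75 with metformin, and its log2 fold change was -3.68, SE 0.047, adjusted p = 8.07e-19. The groups were far apart for both genes, and the samples within a group lay close together.

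Ifi44 had the largest fall among the genes with a mean of at least 5 FPKM in the higher group, from 20.3, 19.1 and 20.1 FPKM in the Control samples to 0.263, 0.211 and 0.269 FPKM with metformin. The log2 fold change was -6.31, SE 0.082, adjusted p = 9.41e-19. Oas1a, an enzyme that senses double-stranded RNA and makes the activator of RNase L, went from 27.2 ± 1.49 FPKM in Control to 0.832 ± 0.132 with metformin, and Usp18, which takes Isg15 off its targets and damps interferon signalling, from 79.3 ± 2.14 FPKM in Control to 5.89 ± 0.362 with metformin. Ifitm3, a membrane protein that blocks virus entry and is not on the list, was also among the 12 largest falls, at -4.63 on the log2 scale.

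The fall was not even across the list. Stat2 changed by -1.64, while the antiviral membrane protein Bst2 changed by -2.11 and the abundant Ifi27l2a by -2.11. Ifit2 was the member that rose, from 4.61 ± 0.415 FPKM in Control to 6.09 ± 0.438 with metformin (log2 fold change 0.37). It is the neighbour and close relative of Ifit1 and Ifit3 in the same gene family, and Ifit1 fell while Ifit3 was the member that did not pass the test.

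The start of these genes was read from RefSeq windows of GRCm38.p6, each with 250 bases before and 50 after the transcription start. The interferon-stimulated response element, searched on both strands as 2 GAAA blocks with 2 bases between them, a motif chosen after the values were seen, was in 12 of the 20 windows of the list's members (60%; 19 of the 25 members have a window), against 3.44% of all 32851 windows. The windows of Oas1a (chr5:120907476-120907775, minus strand) and Isg15 (chr4:156200769-156201068, minus strand) are shown because both genes fell steeply and hold overlapping copies, which are in capitals. A match is a description of the letters and not a binding site.
Oas1a: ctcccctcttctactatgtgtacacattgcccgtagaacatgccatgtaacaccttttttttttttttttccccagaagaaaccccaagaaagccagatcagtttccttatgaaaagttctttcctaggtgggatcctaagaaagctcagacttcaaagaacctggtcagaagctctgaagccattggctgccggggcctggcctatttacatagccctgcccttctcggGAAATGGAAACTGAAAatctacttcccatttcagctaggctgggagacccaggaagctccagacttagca
Isg15: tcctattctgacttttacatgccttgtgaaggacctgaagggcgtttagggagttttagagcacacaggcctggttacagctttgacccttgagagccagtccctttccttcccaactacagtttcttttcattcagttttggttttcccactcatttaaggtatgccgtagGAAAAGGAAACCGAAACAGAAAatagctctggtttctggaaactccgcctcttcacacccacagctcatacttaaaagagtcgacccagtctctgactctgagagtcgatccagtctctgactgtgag

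Transcripts of the glycolysis list were lower along the whole pathway. All 20 measured genes of the list fell, by log2 fold changes between -2.03 and -0.50 and a median of -1.54, and in all 20 the FPKM values of the groups did not overlap. The list took 2.61% ± 0.0170 of the counted reads in Control and 1.03% ± 0.00582 with metformin (SD, n = 3; p = 0.1, exact permutation test).

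Glucose enters the T cell through Slc2a1, which was at 143, 149 and 147 FPKM in the Control samples and 42, 42.7 and 42.8 with metformin (log2 fold change -1.82), and Slc2a3, which changed by -1.98. Hexokinase Hk2, which traps glucose by phosphorylation, had the largest fall of the list, from 41.8 ± 0.613 FPKM in Control to 10.5 ± 0.182 with metformin. The change was -2.03, SE 0.032, adjusted p = 7.13e-18 on the log2 scale. The transcripts of all 3 genes thus fell by more than 1 on the log2 scale.

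The enzymes that follow are among the most abundant transcripts of these cells, and 7 of the 8 genes that lost the largest share of reads belonged to this list. They were Pkm, Eno1, Gapdh, Ldha, Aldoa, Pgk1 and Tpi1, and the eighth was the actin gene Actb. Pkm, the pyruvate kinase, went from 0.38% ± 0.00735 in Control to 0.116% ± 0.00234 with metformin of the reads and Eno1, the enolase, from 0.319% ± 0.00337 in Control to 0.096% ± 0.00258 with metformin. Ldha, which turns pyruvate into lactate, was at 1522, 1531 and 1511 FPKM in the Control samples and 514, 526 and 505 with metformin, and its log2 fold change was -1.60, SE 0.029, adjusted p = 3.97e-17. The smallest fall of the list was that of Gpi1, the isomerase after hexokinase, from 368 ± 3.16 FPKM in Control to 266 ± 3.23 with metformin.

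Genes of the hypoxia response outside glycolysis moved with them. These are mostly targets of the factor HIF-1, whose alpha subunit is encoded by Hif1a. Of 19 tested out of 20, 18 fell and 1 rose, with a median log2 fold change of -1.40. Hif1a itself changed by -0.44, from 180.2 ± 7.58 FPKM in Control to 135 ± 2.44 with metformin, less than most of its targets.

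Egln3, a prolyl hydroxylase that marks HIF-1 alpha for breakdown and is itself induced by it, was at 168, 168 and 164 FPKM in the Control samples and 16, 13.7 and 15.2 with metformin. This was a log2 fold change of -3.51, SE 0.044, adjusted p = 7.43e-19, the largest fall of the list. P4ha2, which hydroxylates collagen, was at 26, 26.6 and 26.2 FPKM in the Control samples and 3.28, 3.31 and 3.78 with metformin (log2 fold change -2.96), and Bnip3, a receptor for the removal of mitochondria, went from 147 ± 4.54 FPKM in Control to 20.6 ± 0.188 with metformin. No metformin sample came near a Control sample for these genes.

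Other members changed less. Vegfa, the growth factor of blood vessels, changed by -0.66 on the log2 scale, and Ero1l, the oxidase of the ER, by -2.14. Pfkfb4, which sets the level of an activator of phosphofructokinase, was the member that rose (0.21), and its call was lost under 5 of the alternatives, leaving out Control 3 among them, with values from 0.14 to 0.21.

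The letters ACGTG, the core of the hypoxia element, were searched on both strands. They stood in 17 of 31 windows of the glycolysis genes (54.8%) and in 14 of 24 of the other hypoxia genes (58.3%), against 19.6% of all windows. The search also finds the E-box CACGTG, which holds these letters, and does not tell the elements apart. The windows of Egln3 (chr12:54203825-54204124, minus strand) and P4ha2 (chr11:54100674-54100973, plus strand) are shown as those of the genes with the largest falls of the hypoxia list, with the matches in capitals.
Egln3: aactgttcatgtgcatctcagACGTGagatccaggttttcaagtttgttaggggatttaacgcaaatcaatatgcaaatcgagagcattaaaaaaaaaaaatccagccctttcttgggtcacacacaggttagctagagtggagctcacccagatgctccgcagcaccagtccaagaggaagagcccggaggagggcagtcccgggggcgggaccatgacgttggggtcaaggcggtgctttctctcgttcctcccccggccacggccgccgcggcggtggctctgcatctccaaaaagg
P4ha2: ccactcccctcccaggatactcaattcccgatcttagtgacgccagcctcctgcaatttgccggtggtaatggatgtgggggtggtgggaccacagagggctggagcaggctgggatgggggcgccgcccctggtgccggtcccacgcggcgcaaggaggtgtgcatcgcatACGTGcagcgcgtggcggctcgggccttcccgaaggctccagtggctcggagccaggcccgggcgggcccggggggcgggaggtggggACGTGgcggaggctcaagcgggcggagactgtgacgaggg

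**Figure D2:**
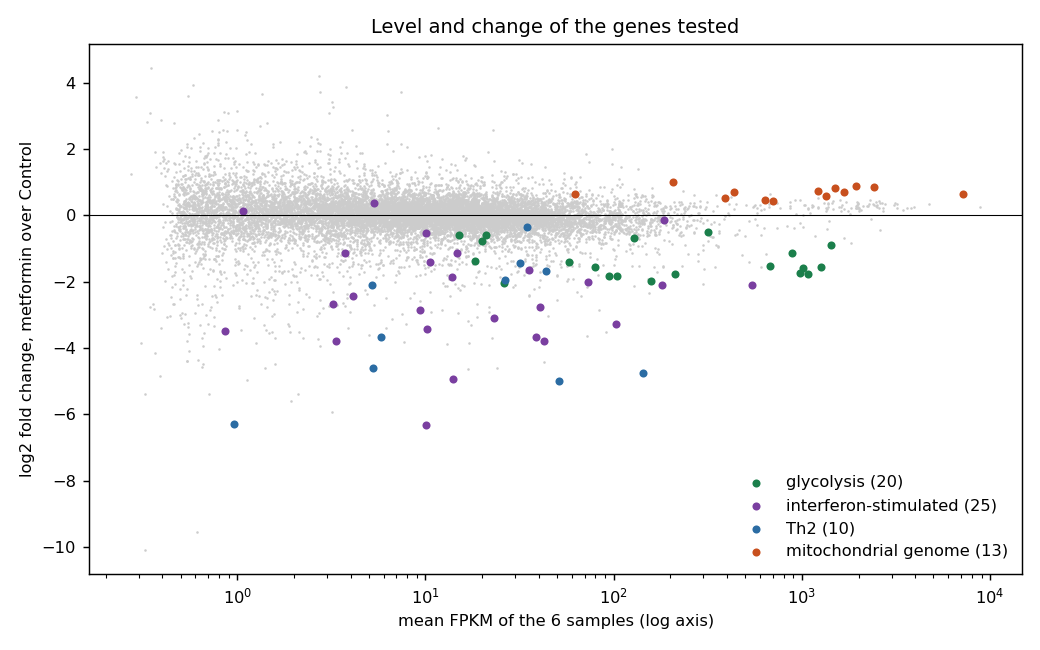
Log2 fold change with metformin (vertical) against the mean FPKM of the 6 samples on a log axis (horizontal), 1 grey point for each of the 13351 genes tested and coloured points for 4 lists. The 20 glycolysis genes lie below 0 and many of them are among the most abundant genes, the 13 genes of the mitochondrial genome lie above 0, and the interferon-stimulated and Th2 genes reach the largest falls.

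The respiratory chain is encoded by 2 genomes, and its genes did not move as 1 group. All 13 protein-coding genes of the mitochondrial genome rose, with a median log2 fold change of 0.70. Their share of the counted reads was 1.71%, 1.68% and 1.72% in the Control samples and 2.84%, 2.76% and 2.79% with metformin. The means were 1.70% ± 0.0172 and 2.80% ± 0.0409 (SD, n = 3; p = 0.1, two-sided exact permutation test), and each metformin sample lay above each Control sample.

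COX1, a core subunit of complex IV, gained more reads than any other gene. It was at 5492, 5495 and 5441 FPKM in the Control samples and 8819, 8773 and 8876 with metformin, a log2 fold change of 0.65, SE 0.028, adjusted p = 2.12e-12. ND3, a subunit of complex I, had the largest rise of the 13, from 134 ± 8.37 FPKM in Control to 277 ± 29.7 with metformin, and ND2, also of complex I, the smallest, from 593 ± 29.8 FPKM in Control to 817 ± 40.2 with metformin. After quantile normalization of FPKM, 12 of the 13 still rose, and COX1 had a value of 0 because it held the same rank in the samples.

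The nuclear genes of the same complexes moved the other way, by little. Of 36 nuclear genes of complex I, 21 fell and 3 rose, with a median of -0.16, and of 32 genes of complexes II to V, 25 fell and 3 rose, with a median of -0.21. Quantile normalization changed these counts to 10 lower and 9 higher for complex I and to 10 lower and 6 higher for complexes II to V, with medians of -0.033 and -0.053, so that the number and the size of the falls rest on the scaling. Cycs, which is cytochrome c, changed by -0.64, Atp5b, a subunit of the ATP synthase, by -0.45, and Ndufv3 of complex I by -0.65. Ndufa6 and Uqcrh rose, by 0.41 and 0.36.

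The elongation factors Eef1a1 and Eef2 were among the 8 genes that gained most reads. Eef1a1, which brings tRNA to the ribosome, went from 1.54% ± 0.031 in Control to 1.88% ± 0.0275 with metformin of the reads, and Eef2, which moves the ribosome along, from 0.737% ± 0.00993 in Control to 0.921% ± 0.0108 with metformin. After quantile normalization of FPKM the log2 fold change of Eef1a1 was 0 and that of Eef2 -0.00078, so neither passed the test. The 79 genes of cytosolic ribosomal proteins, a set chosen after its values were seen, held 10.8% ± 0.0585 of the reads in Control and 13.4% ± 0.265 with metformin. Of them 75 rose and 1 fell (median 0.27 on the log2 scale), and 43 rose and 4 fell after quantile normalization (median 0.092). Reads of these genes can be shared with their many processed pseudogenes, which makes single values uncertain. The 10 highest genes of each sample together took 5.99% ± 0.0382 of the reads in Control and 7.47% ± 0.106 with metformin (p = 0.1, exact permutation test).

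**Figure D3:**
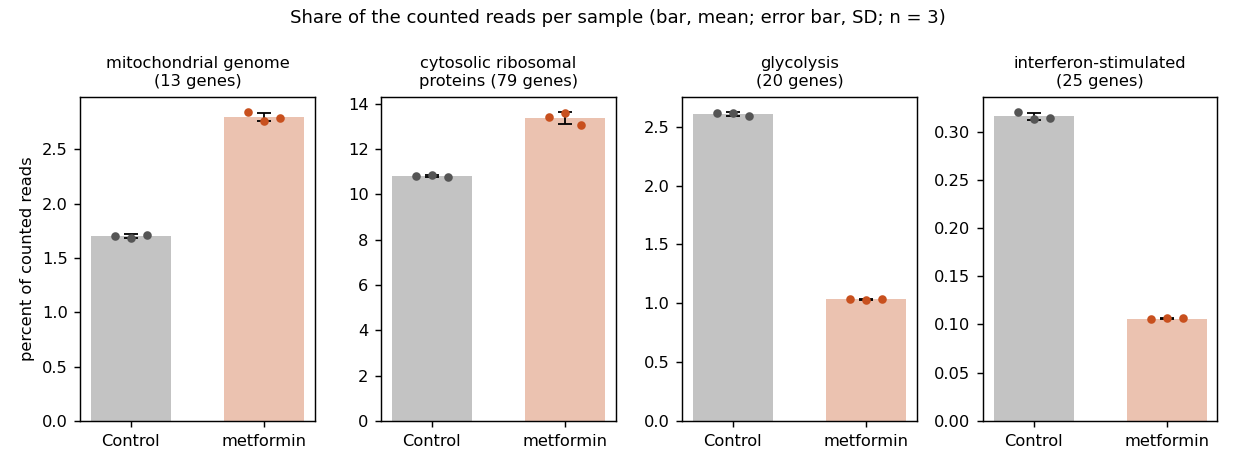
Percent of all counted reads that fell in 4 gene groups, with a bar at the mean, an error bar for the SD and a point for each of 3 samples. The shares of the mitochondrial genome and the ribosomal proteins were higher with metformin in 3 of 3 samples, and those of glycolysis and the interferon-stimulated genes were lower in 3 of 3.

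Most targets of the stress factor ATF4 rose, by smaller amounts. ATF4 is translated when the initiation factor eIF2 alpha is phosphorylated, as in amino acid shortage or mitochondrial stress, and it raises amino acid synthesis, transport and tRNA charging. Of 29 genes tested out of 30, 24 rose, 1 fell (2 without Metformin 2) and 4 did not pass the test, with a median log2 fold change of 0.41. This is 82.8% of the list higher, against 34.4% of all genes tested.

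Atf5, a related factor that guards mitochondrial protein folding, was at 38.4, 32.3 and 36.7 FPKM in the Control samples and 118, 109 and 109 with metformin. It had the largest rise of the list, with a log2 fold change of 1.61, SE 0.052, adjusted p = 5.59e-14. Trib3, a pseudokinase that feeds back on the pathway, was at 43.3, 39.8 and 40.6 FPKM in the Control samples and 87, 87.3 and 80.7 with metformin (log2 fold change 1.01). Ddit3, which encodes the stress factor CHOP, changed by 0.92, Pck2, the mitochondrial PEP carboxykinase, by 0.90, and Asns, asparagine synthetase, by 0.42.

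Atf4 itself changed by 0.28, from 257 ± 6.72 FPKM in Control to 319 ± 11.6 with metformin. The exception on the list was Atf3, a stress factor that is also induced by cytokines, which fell from 66.5 ± 0.864 FPKM in Control to 26.3 ± 1.71 with metformin (log2 fold change -1.37). The ATF4 element, searched as TGATGNAA on both strands, was in 9 of 27 windows of the list (33.3%), against 3.97% of all windows. The windows of Trib3 (chr2:152344011-152344310, minus strand) and Pck2 (chr14:55540016-55540315, plus strand) are shown because both genes rose and both hold the element on the reverse strand, in capitals.
Trib3: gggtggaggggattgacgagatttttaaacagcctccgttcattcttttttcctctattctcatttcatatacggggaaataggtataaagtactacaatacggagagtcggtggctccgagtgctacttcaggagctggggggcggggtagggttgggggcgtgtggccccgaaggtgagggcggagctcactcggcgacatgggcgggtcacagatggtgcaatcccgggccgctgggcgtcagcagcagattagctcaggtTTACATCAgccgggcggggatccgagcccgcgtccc
Pck2: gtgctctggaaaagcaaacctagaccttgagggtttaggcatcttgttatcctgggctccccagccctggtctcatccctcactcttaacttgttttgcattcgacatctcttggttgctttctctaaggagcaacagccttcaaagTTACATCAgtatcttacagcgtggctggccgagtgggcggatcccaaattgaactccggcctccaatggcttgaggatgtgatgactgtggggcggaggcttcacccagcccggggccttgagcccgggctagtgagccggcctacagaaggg

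Most transcripts of lipid synthesis genes were lower. Of 23 genes of cholesterol synthesis and uptake, 19 fell and 4 did not pass the test, with a median log2 fold change of -0.73. With upper-quartile scaling 3 of the 23 rose, after quantile normalization 1, and 2 rose when Control 3 was left out. Lss, which closes the sterol ring, changed by -1.25, from 13.2 ± 0.384 FPKM in Control to 5.59 ± 0.22 with metformin. Insig1, the sterol-controlled anchor of the SREBP system, changed by -1.10. Srebf2, the factor that drives the pathway, changed less, by -0.47.

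Genes of fatty acid synthesis followed the same course, with 9 of 10 tested genes lower and a median of -0.69. Fads2, a desaturase, was at 22.6, 23.7 and 22.6 FPKM in the Control samples and 5.85, 5.33 and 5.61 with metformin (log2 fold change -2.07), and Fasn, the synthase, changed by -1.09. Acss2, which makes acetyl-CoA from acetate, was the gene that rose (0.44). In fatty acid oxidation 8 of 16 genes rose and 3 fell, with a median of 0.087, among them Cpt1a, the gate for fatty acids into mitochondria (0.51). The 16 genes of the TCA cycle split into 8 higher and 7 lower.

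Most genes of growth and division were lower as well. Of 27 genes of MYC and ribosome biogenesis, 24 fell and 1 rose, with a median log2 fold change of -0.70. Myc was at 118, 117 and 113 FPKM in the Control samples and 47.4, 45.7 and 49.3 with metformin, with a log2 fold change of -1.33, SE 0.034, adjusted p = 2.33e-15. Polr1b, a subunit of RNA polymerase I, changed by -0.99 and the nucleolar protein Nolc1 by -0.97. Npm1, an abundant nucleolar protein with many pseudogenes, was the member that rose (0.21), and it did not pass the test after quantile normalization. Most genes that build ribosomes thus moved opposite to those of the ribosomal proteins.

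Of 25 genes of DNA replication and nucleotide synthesis 20 fell and 1 rose (median -0.33), and of 25 genes of mitosis 17 fell and 1 rose (median -0.32). The counts of rises depend on the processing. No replication gene was called higher under DESeq2 or when any 1 sample other than Control 2 was left out. The same held with all 4 groups in the fit, with no filter, after quantile normalization and with TPM values. With upper-quartile scaling and in both limma fits of FPKM 1 was called higher. Without a sample the mitosis list had between 0 (without Control 1, Control 3 or Metformin 2) and 3 genes higher (without Control 2), and 4 after quantile normalization. Orc1, which marks the origins of replication, had the largest fall of both lists, from 8.31 ± 0.323 FPKM in Control to 3.15 ± 0.11 with metformin (log2 fold change -1.44). Ccne2, a cyclin of the entry into S phase, changed by -1.39 and Rrm2, a subunit of ribonucleotide reductase, by -0.88. Mki67, the marker of cycling cells, changed by -0.27, from 54.5 ± 1.73 FPKM in Control to 46.2 ± 1.0 with metformin, so this transcript was abundant in both groups.

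Genes of the AMPK and mTORC1 pathway did not move together: 11 of 24 rose, 8 fell and the median was 0.046, and 4 or 5 fell under 5 of the alternatives that kept all 6 samples and 5 without Metformin 2. Prkaa1, the catalytic subunit of AMPK, was at 7.32, 6.97 and 6.87 FPKM in the Control samples and 5.79, 5.77 and 6.43 with metformin (log2 fold change -0.27, SE 0.054, adjusted p = 2.94e-04). Mtor changed by -0.11, the size of a 1.08-fold difference, and its call was lost under 6 of the alternatives. Ulk1, the kinase that starts autophagy, and Flcn, which controls mTORC1 at the lysosome, rose by 0.90 and 0.90. Sesn1, a leucine-sensing inhibitor of mTORC1, changed by 0.78, and Tfeb, the factor for lysosome genes, by 0.67. These are mRNA levels, and the activity of the kinases was not analysed here.

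**Figure D4:**
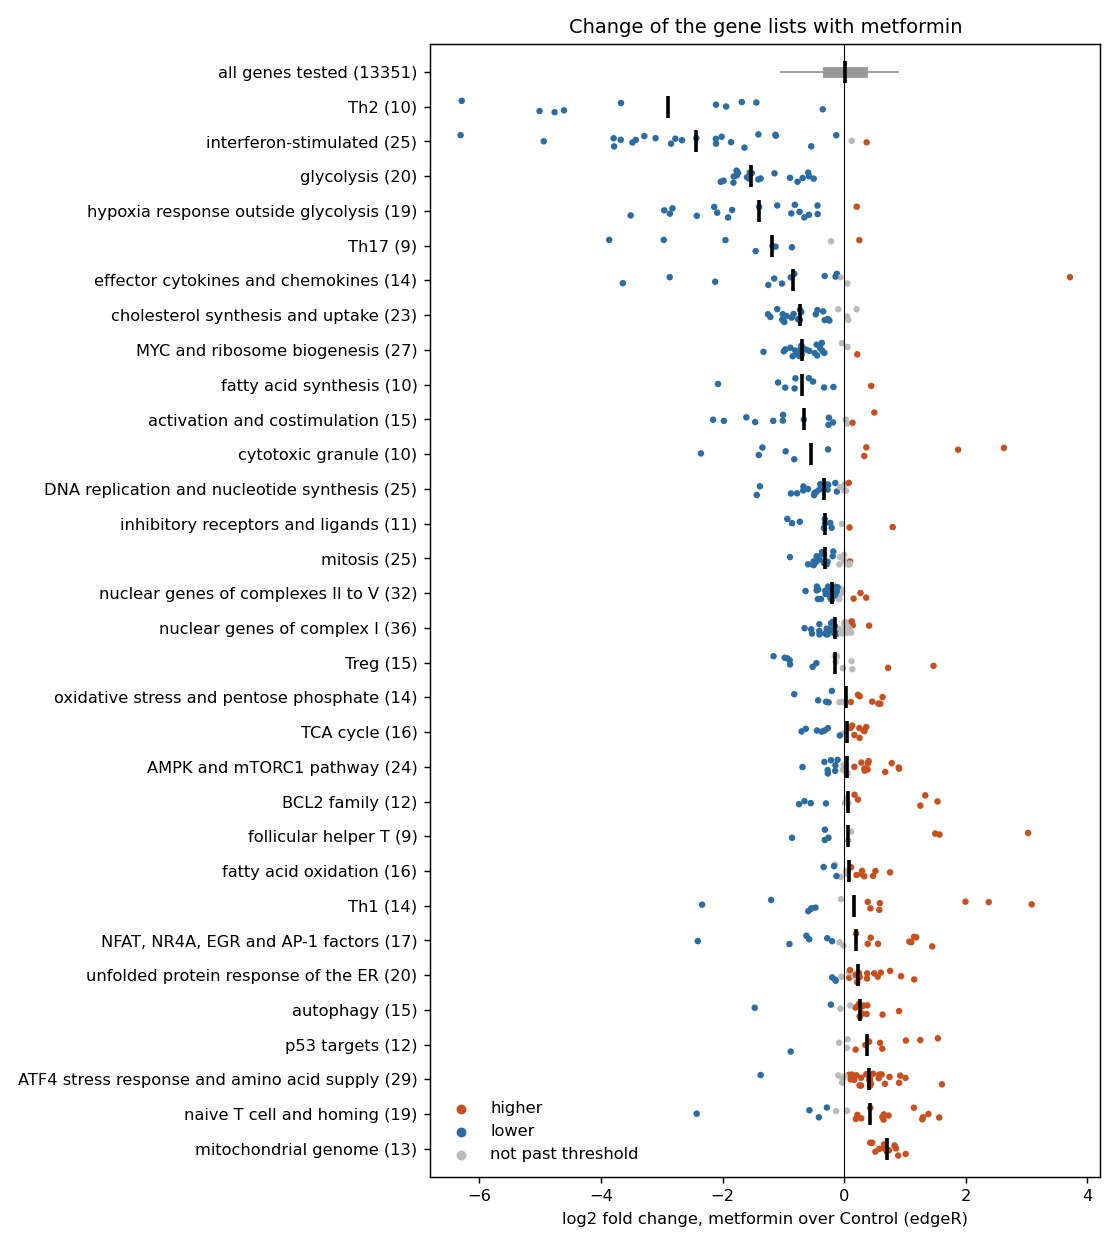
Log2 fold change with metformin of each tested gene in 31 lists, ordered by their median (black mark), with genes that rose in orange, that fell in blue and that did not pass the test in grey. The top line shows all 13351 genes tested, with a thick bar from the 25th to the 75th percentile and a thin one from the 5th to the 95th, and the Th2 and interferon-stimulated lists have medians of -2.89 and -2.43.

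Th2 cells are helper cells driven by GATA3 that make interleukins for the defence against worms and in allergy. On the Th2 list all 10 tested genes out of 12 fell. Their median change was -2.89 on the log2 scale, which moved to -1.74 with limma on log2(FPKM + 1). In this fit and in 4 other alternatives the interferon-stimulated list had the lower median of the 2 lists. For all 10 genes the FPKM values of the groups did not overlap.

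Il13 was at 279, 272 and 278 FPKM in the Control samples and 11.5, 9.8 and 10.02 with metformin. Its log2 fold change was -4.76, SE 0.048, adjusted p = 4.33e-20, and it was the most abundant of the cytokines on the list in Control. Il24 was at 95.6, 104 and 97 FPKM in the Control samples and 3.83, 2.44 and 3.15 with metformin, with a log2 fold change of -5.01, SE 0.083, adjusted p = 1.41e-17. Il5, which brings on eosinophils, went from 10.1 ± 0.506 FPKM in Control to 0.418 ± 0.122 with metformin, and Il4, the cytokine that sets the Th2 fate, from 42 ± 2.57 FPKM in Control to 11.1 ± 0.766 with metformin. Il4 thus fell less than the cytokines next to it in its cluster, to which Il13 and Il5 belong.

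Il9 had 50 to 68 reads in the Control samples and 0 to 2 with metformin, which is at or under the floor of 3 reads taken per sample, so that it fell by at least 4.33 on the log2 scale, taking the floor for its level. With Il9 at this bound the median of the list stayed at -2.89. Il10, which restrains inflammation, changed by -3.67. Gata3 was at 46.5, 46.1 and 46.5 FPKM in the Control samples and 17.6, 17.4 and 17.4 with metformin (log2 fold change -1.44), and Maf, its partner at the Il4 gene, changed by -2.11. The chemokine receptor Ccr4 changed by -1.68 and Ccr8 by -0.35, the smallest change of the list.

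Other cytokines fell with them, with 1 clear exception. Of 14 effector cytokines and chemokines 11 fell and 1 rose, with a median of -0.85. Lif, a cytokine of the IL-6 family, was at 132, 135 and 133 FPKM in the Control samples and 11.1, 10.04 and 11.7 with metformin, and its log2 fold change was -3.64, SE 0.037, adjusted p = 4.33e-20. Csf2, which encodes GM-CSF, changed by -2.12, lymphotoxin Lta by -1.02, and Il2, the growth factor of T cells, from 4.09 ± 0.314 FPKM in Control to 1.76 ± 0.22 with metformin (log2 fold change -1.25). Xcl1, a chemokine that draws dendritic cells, was the gene that rose, from 1.85, 0.549 and 0.711 FPKM in the Control samples to 11.5, 15 and 14.8 with metformin. Its log2 fold change was 3.71, SE 0.25, adjusted p = 7.56e-10, and the first Control sample lay above the other two.

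On the list of activation and costimulation 11 of 15 genes fell and 2 rose, with a median of -0.66. After quantile normalization 9 fell and 4 rose, with a median of -0.42, and 4 also rose with upper-quartile scaling. Il2ra, the high-affinity chain, was at 339, 342 and 338 FPKM in the Control samples and 155, 154 and 158 with metformin (log2 fold change -1.16), and Il2rb, the shared signalling chain, changed by -1.17. The feedback genes of STAT5 and STAT3 signalling fell too, Cish by 1.01, Socs1 by 1.46 and Socs3 by 2.16 on the log2 scale. Tfrc, the transferrin receptor of growing cells, was at 82.7, 92 and 93.8 FPKM in the Control samples and 24.2, 22.6 and 23 with metformin, and the costimulator Tnfrsf9 changed by -1.61. Il2ra, Il2rb and Tnfrsf9 remained abundant, each above 100 FPKM with metformin in every sample.

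The Th1 list did not move as 1 group, with 7 genes higher and 6 lower of 14. Tbx21, the factor that sets the Th1 fate, changed by -0.47, and Ifng, its main cytokine, was at 11, 10.9 and 10.3 FPKM in the Control samples and 7.43, 6.8 and 7.69 with metformin (log2 fold change -0.59, SE 0.077, adjusted p = 3.32e-06). Ccl5, a chemokine of effector cells, fell most, from 255 ± 1.94 FPKM in Control to 51.6 ± 5.08 with metformin, and Runx3, the partner of T-bet, changed by -1.20. The receptor chains for IL-18 rose, Il18r1 from 0.778 ± 0.126 FPKM in Control to 4.14 ± 0.267 with metformin and Il18rap from 0.178 ± 0.0289 FPKM in Control to 1.6 ± 0.12 with metformin. Eomes, the factor related to T-bet, rose from 1.22 ± 0.197 FPKM in Control to 5.01 ± 0.166 with metformin (log2 fold change 1.99). The list thus held both large falls and large rises, which its median of 0.17 (-0.048 over the 13 genes with a mean FPKM of at least 1) does not show.

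Genes of the Th17 list were mostly lower, with 7 of 9 tested genes lower and 1 higher, but its defining cytokine was near 0. The higher call was lost without Control 1, Control 2 or Metformin 3, with no filter on low values, in the limma fits and after quantile normalization. Il17a did not pass the filter, with means of 0.235 FPKM in Control and 0.374 with metformin and at most 22 and 32 reads in a sample, and neither Il17f nor Il23r passed it. The genes that fell are shared with other helper cells: Il21 changed by -2.97, Il22 by -3.87, Irf4 by -1.18 and Batf by -1.13. Stat3, the factor downstream of IL-6 and IL-21, was at 108, 112 and 109 FPKM in the Control samples and 61.6, 61.4 and 62.6 with metformin (log2 fold change -0.86, SE 0.028, adjusted p = 7.84e-14).

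Of 15 tested Treg genes 7 fell, 2 rose and 6 did not pass the test, with a median of -0.15. Foxp3, the factor that defines regulatory T cells, was at 3.54, 3.19 and 3.7 FPKM in the Control samples and 2.9, 2.18 and 2.38 with metformin. The fall was small (log2 fold change -0.52, SE 0.097, adjusted p = 1.65e-04), and the lowest Control sample lay just above the highest metformin sample. Ctla4, the inhibitory receptor, changed by -0.94. The genes that rose were Nt5e, the ectoenzyme CD73, from 5.44 ± 0.454 FPKM in Control to 15.4 ± 0.239 with metformin, and Izumo1r, folate receptor 4, from 171 ± 2.86 FPKM in Control to 294 ± 17.6 with metformin. Pdcd1, which encodes PD-1, changed by -0.32, and of 11 inhibitory receptors and ligands 8 fell and 2 rose, with a median of -0.32. Without Control 2, Control 3 or Metformin 1 only 1 of them rose. The same held under DESeq2, with no filter on low values and with TPM values. After quantile normalization 3 rose, with a median of -0.18.

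Of 10 tested genes of the cytotoxic list 6 fell and 4 rose. Among those that fell were Gzmb, a granzyme, from 753 ± 25.3 FPKM in Control to 292 ± 4.87 with metformin, Gzma by 2.36, Prf1, perforin, by 1.35 and Srgn, the proteoglycan of the granule, by 0.96 on the log2 scale. Gzmc fell by 0.82 and Serpinb9, an inhibitor of granzyme B, by 0.27. Nkg7, a membrane protein of the granule, rose by 0.33 and the receptor gene Klrk1 by 0.36, the latter with groups that overlapped in FPKM. The receptor genes of NK and memory cells Klrd1 and Klrc1 rose further, Klrd1 to 19.7, 23.2 and 17.7 FPKM from 3.44, 2.26 and 3.73 FPKM in the Control samples (log2 fold change 2.63) and Klrc1 by 1.87. The summed FPKM of 5 NK cell markers was 0.075 to 0.215 in Control and 0.314 to 0.815 with metformin, most of it Klre1 (means 0.121 and 0.496 FPKM). Klrb1c and Klra4 had means of 0 in Control and of 0.0478 and 0.0435 with metformin. Ncr1 was lower with metformin, at means of 0.0267 and 0.00788, and so was Klra8, at 0.00937 and 0. Apart from Klre1, each of these genes had at most 13 reads in a sample. The part of NK or CD8 cells in these rises was not tested.

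Of 19 tested genes of the list for naive T cells and homing 13 rose and 4 fell, with a median log2 fold change of 0.43. Tcf7, the factor of naive and stem-like T cells, was at 47.7, 48.2 and 47.1 FPKM in the Control samples and 151, 148 and 148 with metformin, and its log2 fold change was 1.56, SE 0.03, adjusted p = 5.98e-17. Klf2, which keeps T cells quiet and in circulation, changed by 1.28, the costimulator Cd27 by 1.15, and the homing receptor Ccr7 by 0.63. Ly6c1, which interferon also induces, went the other way (-2.43).

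On the list of follicular helper T cells 3 of 9 tested genes rose, 4 fell and 2 did not pass the test, with a median of 0.068. Bcl6, the repressor that defines these cells and an opponent of effector programs, was at 1.52, 1.26 and 1.43 FPKM in the Control samples and 12, 11.3 and 9.82 with metformin. Its log2 fold change was 3.02, SE 0.071, adjusted p = 9.02e-16, and it was among the 12 largest rises. Myb, a factor of immature and stem-like lymphocytes, was at 6.55, 6.49 and 6.49 FPKM in the Control samples and 38, 38.5 and 41.4 with metformin (log2 fold change 2.57). Slamf6, a receptor of stem-like T cells, changed by 1.57. Bcl6, Myb and Tcf7 each had metformin samples far above the highest Control sample.

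Factors switched on by the T cell receptor were divided, with 9 of 17 higher and 6 lower. Nr4a1, an early response gene of the receptor, went from 57.3 ± 3.21 FPKM in Control to 162 ± 1.5 with metformin, Nr4a3 changed by 1.15 and Egr3 by 1.10. Tox, the factor of persistently stimulated T cells, changed by 1.07. Batf3, a partner of AP-1 factors, fell from 59.2 ± 1.31 FPKM in Control to 11.4 ± 0.417 with metformin (log2 fold change -2.41).

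Among the 12 largest falls were also genes on no list. Tgm2, a transglutaminase, went from 81.3 ± 0.974 FPKM in Control to 3.91 ± 0.182 with metformin. Smtnl2 changed by -5.93, Tgm1 by -3.95 and Kremen2, a receptor for DKK proteins, by -3.89. The largest rise with a mean of at least 5 FPKM in the higher group was that of Sntb1, a syntrophin of the membrane skeleton, from 0.482 ± 0.0938 FPKM in Control to 7.05 ± 0.52 with metformin (log2 fold change 3.87). Gm26740, a predicted gene, changed by 3.72, the alcohol dehydrogenase Adh1 by 3.43, the phospholipase Pla2g4f by 3.27 and Scg2, secretogranin II, by 2.56. Rpph1, the RNA of RNase P and not a messenger RNA, changed by 3.09, in libraries labelled as polyA RNA.

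Whether metformin did the same where FK506 was present was asked with the other 6 samples, Metformin+FK506 against FK506, which share no sample with the comparison above. There 4126 of the same genes changed (30.9%), and the median size of a change was 0.14 on the log2 scale, against 0.28 without FK506. The effect of metformin differed between the settings in 6693 genes (50.1%) by edgeR's test of the interaction. Of 3189 genes that changed in both settings, 1912 moved in the same direction and 1277 in opposite directions, and all of the latter also passed the test of the interaction (9.56% of the genes tested). The samples with FK506 held more RNA of other cells, with a summed FPKM of B cell markers of 2594 to 2689 with FK506 and 1572 to 1670 with both drugs, and of myeloid markers of 1336 to 1387 and 885 to 997. The part of these cells in the differences was not tested.

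The glycolysis list turned direction. With FK506 present 18 of the 20 genes rose with metformin and 1 fell, with a median of 0.29. The interaction passed the test in all 20. The hypoxia list did likewise, with 14 higher and 1 lower, a median of 0.33 and the interaction past the test in 19 of 19. Slc2a1 changed by 0.35 with FK506 present against -1.82 without it, and Egln3 by 0.87 against -3.51. The Th2 list had a median of 0.0012 with FK506 present, the interferon-stimulated list of -0.31 and the mitochondrial genome of 0.011, and the interaction passed the test in 6 of 10, 24 of 25 and 13 of 13 genes.

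On the ATF4 list 21 of 29 genes rose and 3 fell with FK506 present, with a median of 0.35 against 0.41 without it. The interaction passed the test in 16 of the 29 genes, near the share of 50.1% of all genes tested. In 3 of the 29 the changes were also in opposite directions, near the share of 9.56% of all genes tested. Trib3 changed by 1.16 with FK506 present, and the difference from its change without it was 0.13 (SE 0.088, adjusted p = 0.231 for the interaction). Asns and Atf5 rose more with FK506 present, by 1.23 and 2.22 (interaction 0.79 and 0.59). Mitosis genes fell further there, all 25 being lower with a median of -0.84, and the interaction passed the test in 22.

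**Figure D5:**
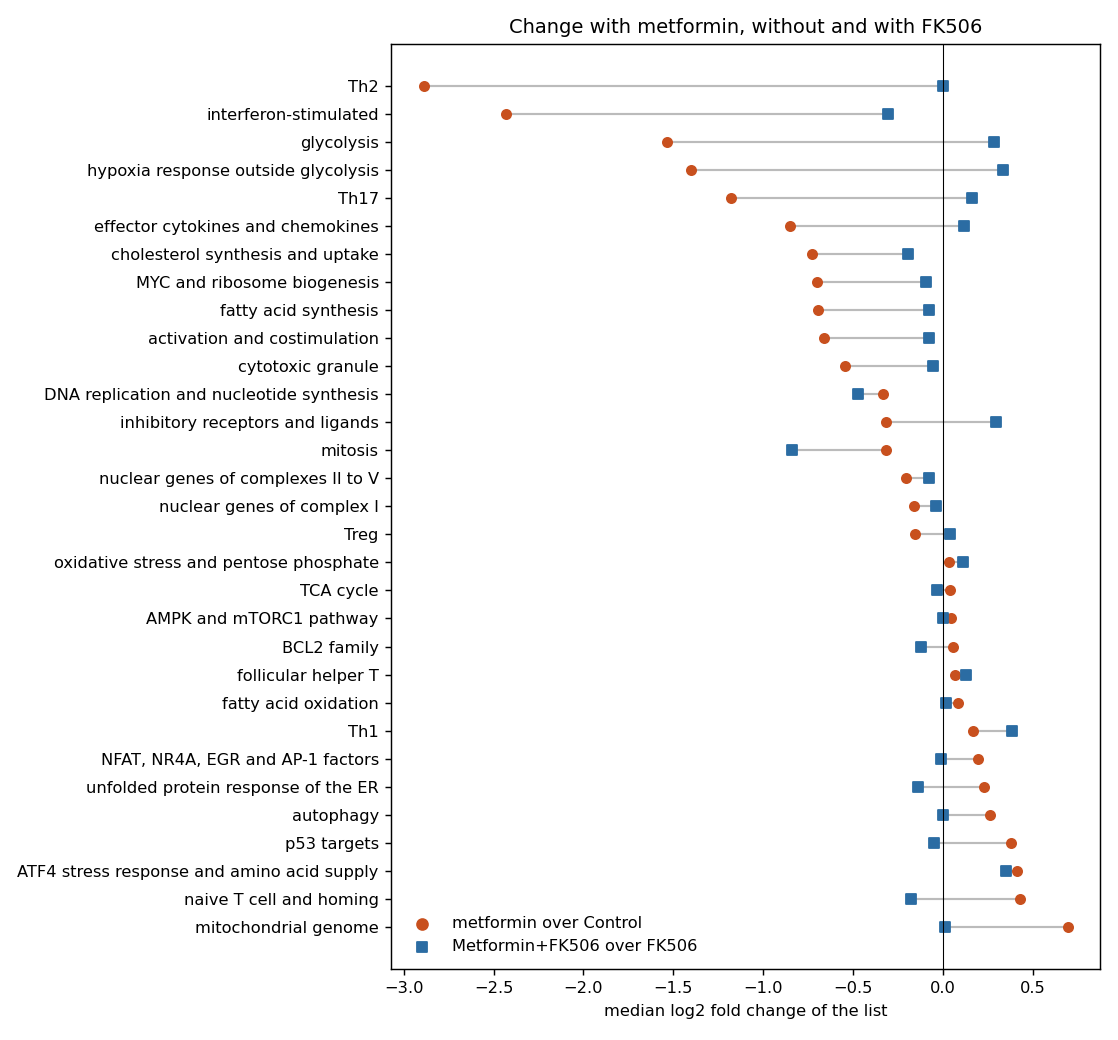
Median log2 fold change of 31 lists for metformin over Control (orange circles) and for Metformin+FK506 over FK506 (blue squares), which share no sample. The squares of glycolysis and the hypoxia response lie at 0.29 and 0.33 where the circles lie at -1.54 and -1.40, and the ATF4 list has both marks near each other at 0.41 and 0.35.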

How the data were processed

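RNA of 6 samples was compared, 3 Control and 3 Metformin, grouped by the treatment given in the labels. The other 6 samples of the series entered the test of the interaction with FK506. The authors deposited whole-number read counts per gene, without normalization. The authors also deposited FPKM values and TPM values, which scale the counts to library size and transcript length. The submitters' processing notes name bcl2fastq 2.20.0, Trimmomatic, HISAT2 2.1.0, StringTie 2.1.3b and the build mm10. The use of strand and the treatment of reads shared between paralogs and pseudogenes are not given in the sources used here, which makes values of such genes uncertain.

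Counts were compared with edgeR 4.0.16 (glmQLFit and glmQLFTest, TMM scaling) in R 4.3.3, with 4 residual degrees of freedom, and 8 for the interaction over 12 samples. Genes needed an FPKM of at least 0.5 in at least 3 of the 6 samples. P-values were adjusted by the Benjamini-Hochberg method over 13351 genes, with a threshold of 0.05. The floor was 3 counts in every sample of a group and covers counting error only. Shares of reads were compared by two-sided exact permutation tests, which cannot go below p = 0.1 for 3 against 3 samples. The scripts were tested on simulated data. Alternatives were limma 3.58.1, DESeq2 1.42.0, other scalings, filters and pseudocounts, the replicate block, leaving out each sample, and TPM values, the last chosen after seeing the data.

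Replicate pairs differed by more than sampling noise (chi-square of counts per degree of freedom 4.34 to 6.70), so all were kept. The members and the 40 gene lists were chosen with earlier results of these data known. Genes named were those of the lists, the 12 largest rises and 12 largest falls past the threshold with a mean of at least 5 FPKM in the higher group and groups that do not overlap, the 8 genes that gained and the 8 that lost most reads, and the genes of proteins the paper names. Promoter windows are RefSeq's of GRCm38.p6. Allogeneic cultures, patients and arrays were not analysed here. Some genes that meet the rule are not reported here.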

Additional observations from a re-analysis of the deposited data

Results flagged for a closer look

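The change with metformin was compared without and with FK506, and the interaction passed edgeR's test in 6693 genes, 50.1% of those tested. Genes that also changed in opposite directions in the 2 settings were 9.56% of those tested. The 167 genes followed through the alternatives are named in the text, some for large changes in this comparison. Their shares thus partly reflect that choice. The interaction passed in 153 of the 167, and 47 of these changed in opposite directions. In 11 of them both changes were 0.5 or more in size on the log2 scale, for which the difference is given here as the log2 fold change with FK506 minus that without it. Of the 11, 9 fell without FK506 and rose with it: Usp18 (4.59), Egln3 (4.36), P4ha2 (3.81), Bnip3 (3.49), Atf3 (2.45), Tpi1 (2.02), Vegfa (1.74), Maf (2.65) and Ifng (1.25). Ccr7, a homing receptor, and Ms4a1, which encodes the B cell marker CD20, rose without FK506 and fell with it, with differences of -1.45 and -2.28. In the FK506 samples the B cell markers fell with metformin in 10 of 10 genes, with a median of -0.86, and the part of B cells in these differences was not tested.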

How the results depend on the processing

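The count of changed genes was 9115, and it lay between 8166 and 9652 over the alternatives that kept the threshold alone. The share of the changed genes that were higher was 50.4%, against 57.8% with upper-quartile scaling and 47.4% in the limma fit of TPM values. Asking also for a log2 fold change of at least 1 left 1209. Leaving out each sample in turn gave 8518 to 8746 genes. The interaction passed in 6160 to 6781 genes over its alternatives, 6160 to 6754 when a sample was left out. With the replicate number as a block 9152 genes changed and the interaction passed in 6487. Same-numbered samples had correlations of 0.066, 0.129 and -0.032, and not every sample correlated best with its own number. With 3 samples per group these values cannot show whether same-numbered samples share a mouse or a culture. The rise in the share of the 10 highest genes was 1.48 percentage points (1.43 to 1.53 with a sample left out) and 1.71 for the 50 highest genes. The rise of the mitochondrial share was 1.10 percentage points (1.08 to 1.12 with a sample left out) and 1.87 as a share of summed FPKM. Of 167 genes followed 161 kept their direction and their side of the threshold in every alternative. The exceptions were Pfkfb4, Mtor, Npm1, COX1, Eef1a1 and Eef2, and after quantile normalization Eef2 had a value of -0.00078 and COX1 and Eef1a1 of 0, since genes at the top keep their rank. Of 1024 list counts under the alternatives that kept the threshold alone, 948 were within 1.5 times. Asking also for a log2 fold change of at least 1 moved 53 of 64 list counts, such as the ATF4 genes higher from 24 to 2, the mitochondrial genome from 13 to 1 and the mitosis genes lower from 17 to 0.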

Other observations

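Further lists of cell death and stress were counted for metformin against Control. In the BCL2 family 5 of 12 genes rose and 4 fell, which is 75% of the list against 68.3% of all genes tested. The genes of the pro-death proteins BIM and PUMA rose, Bcl2l11 from 14.2 ± 0.281 FPKM in Control to 36.5 ± 0.94 with metformin and Bbc3 by 1.25 on the log2 scale, while the pro-survival Bcl2 changed by -0.65. Of 12 tested p53 targets 8 rose and 1 fell (2 without Control 1 or Metformin 3), with a median of 0.38. Trp53inp1, which is also a target of other stress factors, rose from 18.4 ± 1.0 FPKM in Control to 54.7 ± 3.19 with metformin, and the gene that fell was Cdkn1a, which encodes the cell cycle inhibitor p21, from 158 ± 5.72 FPKM in Control to 87.7 ± 3.1 with metformin.

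Autophagy genes rose in 11 of 15 and fell in 2, with a median of 0.26, among them Sqstm1, the cargo receptor p62, which was at 105, 99.1 and 101 FPKM in the Control samples and 159, 163 and 163 with metformin. In the unfolded protein response of the ER 14 of 20 genes rose and 3 fell, with a median of 0.23. Herpud1, a part of ER-associated degradation, changed by 0.94 and Calr, the chaperone calreticulin, by 0.60. On the list of oxidative stress and the pentose phosphate pathway 7 of 14 genes rose and 5 fell. Cox6a2, a subunit of complex IV known from heart and muscle, was among the 12 largest rises, from 1.78 ± 0.684 FPKM in Control to 10.8 ± 0.853 with metformin, and it rose by 2.35 on the log2 scale with FK506 present as well.

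Ly6g, a neutrophil marker by name, had a mean of 3.03 FPKM in Control and 0.132 with metformin (log2 fold change -4.48), while 6 of 8 neutrophil markers, S100a8 and S100a9 among them, had no read in the 6 samples. Among B cell markers 8 of 10 rose and 1 fell, with Cd79a at 14.3, 12.5 and 12.5 FPKM in the Control samples and 16.5, 19.1 and 19 with metformin.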
